A study of Mus musculus with 24 samples.

Results

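A set of 8 AP-1 family genes, several of them known as early responders to growth signals, was examined through the histone marks around them. Its members were Fos, Fosb, Fosl1, Fosl2, Jun, Junb, Jund and Atf3. A locus was taken as the mm10 gene body and its 50-kb flanks, which gave 8 loci among 21938 protein-coding genes and 670 of the 368383 peaks of 7 peak lists. The rule uses no measured value, but the family was proposed with earlier results of these data known.

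AP-1 is a dimer of basic leucine zipper proteins. FOS proteins (Fos, Fosb, Fosl1 and Fosl2) cannot pair with themselves and bind DNA with a JUN partner, whereas JUN proteins (Jun, Junb and Jund) pair with themselves, with FOS or with ATF proteins such as Atf3. Serum, growth factors and stress switch several of these genes on within minutes through MAP kinases that act on bound factors such as SRF and ELK at the Fos promoter and on JUN itself at the Jun promoter, and serum-stimulated fibroblasts are the classic setting for this response. In the developing limb, FOS and JUN proteins are best known for their work in cartilage and bone cells, which form after the stage sampled here. H3K27ac is an acetylation of histone H3 at active promoters and enhancers, H3K4me2 is a methylation at promoters and enhancers whether or not they are active, and H3K27me3 is placed by Polycomb complexes at silent genes.

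The limb samples were forelimb buds of E10.5 mouse embryos (days after conception) of the Swiss Webster strain with 32 to 35 somites, either WT or Shh-/-, which lack the Sonic hedgehog ligand through a null allele. By the study's methods the WT group also held heterozygous littermates, and buds were pooled. The cell samples were NIH3T3 cells, a single established mouse fibroblast line that responds to Hedgehog, grown to confluence, kept in low serum and treated for 48 h with 400 nM purmorphamine, an agonist of the pathway, or with DMSO, its solvent, as the control with 0 nM. There were 24 ChIP-seq libraries, 14 of them immunoprecipitations and 10 inputs, with 2 replicates for each of 7 conditions. In limb buds H3K27ac and H3K4me2 were mapped in both genotypes and H3K27me3 in the mutant alone, and NIH3T3 cells were mapped for H3K27ac under both treatments. Limb chromatin came from 400000 cells and NIH3T3 chromatin from 1000000 cells per immunoprecipitation, and the H3K27ac antibodies of limb and NIH3T3 were from different makers. By the study's methods limb buds were dissociated into cells with an enzyme before fixation, and its effect on the marks at these genes was not tested. Tissue, preparation, antibody and cell number therefore cannot be told apart in any comparison of limb with NIH3T3.

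Each condition had 1 peak list, called on both replicates together, so no list has a spread between replicates and no test of a condition could be made. Shares are given with 95% Wilson intervals, which cover counting error only, and beside the same share over the whole list. The lists held 20846 to 91023 peaks with median widths of 150 to 450 bp, and reads per library are not in the lists, so the depth behind a peak is unknown beyond the minimum per sample that the study's methods state. Over promoter windows from 2 kb before to 1 kb after a gene's start, 6 of 6 limb bud markers had a WT limb H3K27ac peak and 0 of 6 had one in DMSO-treated NIH3T3 cells, while 6 of 6 fibroblast markers had one in DMSO-treated NIH3T3 cells and 2 of 6 in WT limb. Of the markers of other cells in a limb bud, 0 of 3 for ectoderm (Krt5, Epcam, Trp63), 0 of 3 for blood and 1 of 3 for endothelium (Cdh5, 100 bp) had a WT limb H3K27ac peak. Of 3 Hedgehog response genes, Gli1 had 826 bp of promoter H3K27ac in WT and 0 bp in Shh-/- limb buds, and 0 bp with DMSO and 2476 bp with purmorphamine. Ptch1 was covered in all 4 lists, with 2851, 1365, 2215 and 2901 bp in that order, and Hhip in none.

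The sequences on which the loci differ most plainly are given first. Each is the 300-bp window centred on the highest point of a peak, on the plus strand of mm10, except that of the Jun promoter, which is the 250 bases before the RefSeq start on the minus strand. None of them overlaps an annotated exon. The first, at chr12:85473575-85473874, lay 165 bp before the Fos start and had its highest point at the same position in WT limb, Shh-/- limb and DMSO-treated NIH3T3 cells, and its capitals mark the serum response element, the site of SRF.
Fos promoter: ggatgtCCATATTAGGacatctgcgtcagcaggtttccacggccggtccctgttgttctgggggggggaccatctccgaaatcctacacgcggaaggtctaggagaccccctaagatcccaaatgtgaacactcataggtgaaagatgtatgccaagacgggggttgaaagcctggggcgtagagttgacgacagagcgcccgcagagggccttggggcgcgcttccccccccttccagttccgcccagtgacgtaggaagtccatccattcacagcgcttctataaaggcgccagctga
The second, at chr12:85454675-85454974, was the highest point of the best-ranked WT limb H3K27ac peak at the Fos locus, and it has no capitals because it held none of the 4 motifs searched.
Fos, 19 kb before the start: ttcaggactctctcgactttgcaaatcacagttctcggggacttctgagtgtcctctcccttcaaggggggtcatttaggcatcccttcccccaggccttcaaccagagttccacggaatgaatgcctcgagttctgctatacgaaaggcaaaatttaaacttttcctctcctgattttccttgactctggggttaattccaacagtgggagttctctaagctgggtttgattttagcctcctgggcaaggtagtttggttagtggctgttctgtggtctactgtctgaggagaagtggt
The third, at chr4:95052223-95052472, holds the promoter site of Jun in capitals, an 8-base variant of the AP-1 site that JUN and ATF2 bind.
Jun promoter: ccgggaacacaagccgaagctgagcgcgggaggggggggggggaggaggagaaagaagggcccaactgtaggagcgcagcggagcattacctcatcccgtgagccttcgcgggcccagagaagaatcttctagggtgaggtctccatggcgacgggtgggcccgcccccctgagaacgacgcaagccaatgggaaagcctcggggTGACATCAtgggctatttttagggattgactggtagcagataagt
The fourth, at chr4:95098225-95098524, lay under a weak WT limb peak that fell inside an 18000-bp DMSO peak before Jun, with an AP-1 site in capitals.
Jun, 46 kb before the start: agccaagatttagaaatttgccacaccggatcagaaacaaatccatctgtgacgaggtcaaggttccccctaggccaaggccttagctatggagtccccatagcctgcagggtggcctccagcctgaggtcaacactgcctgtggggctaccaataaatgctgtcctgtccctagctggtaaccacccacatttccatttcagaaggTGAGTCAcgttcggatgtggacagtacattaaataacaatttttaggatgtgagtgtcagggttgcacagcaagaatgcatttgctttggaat
The fifth, at chr8:84985525-84985824, was the WT limb peak before Junb, with 3 AP-1 sites in capitals.
Junb, 7 kb before the start: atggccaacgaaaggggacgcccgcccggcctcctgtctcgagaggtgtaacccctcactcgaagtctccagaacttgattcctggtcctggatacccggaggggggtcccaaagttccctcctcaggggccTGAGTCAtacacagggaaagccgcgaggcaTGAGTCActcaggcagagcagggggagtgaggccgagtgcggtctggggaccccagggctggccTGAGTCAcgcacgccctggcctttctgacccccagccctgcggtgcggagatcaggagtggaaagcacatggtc
The last pair, at chr5:32193025-32193324 and chr5:32089175-32089474, were the highest points of Fosl2 peaks found both with DMSO and with purmorphamine and in neither limb genotype. Capitals mark the match to the searched AP-1 pattern TGANTCA, which is TGAGTCA in the first and TGATTCA in the second.
Fosl2, 57 kb after the start: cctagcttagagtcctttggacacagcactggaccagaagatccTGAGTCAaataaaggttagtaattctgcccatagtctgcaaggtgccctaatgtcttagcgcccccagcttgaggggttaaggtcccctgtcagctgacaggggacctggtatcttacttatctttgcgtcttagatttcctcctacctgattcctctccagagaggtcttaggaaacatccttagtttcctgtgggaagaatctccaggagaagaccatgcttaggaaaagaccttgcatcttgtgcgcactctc
Fosl2, 46 kb before the start: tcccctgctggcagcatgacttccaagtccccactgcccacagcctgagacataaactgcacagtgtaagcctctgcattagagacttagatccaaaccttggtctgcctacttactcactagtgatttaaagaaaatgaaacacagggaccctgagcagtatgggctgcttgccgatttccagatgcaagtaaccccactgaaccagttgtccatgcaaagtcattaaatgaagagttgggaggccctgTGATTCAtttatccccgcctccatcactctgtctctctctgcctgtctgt

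**Figure D1:**
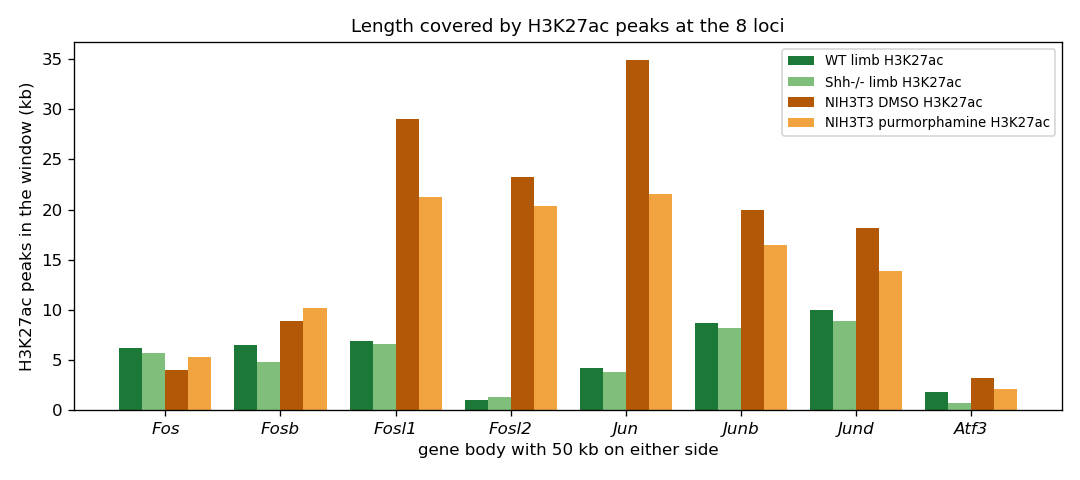
Bars show the length covered by H3K27ac peaks (kb, from 0) in the gene body and its 50-kb flanks, for each of the 8 genes in 4 lists. Jun, Fosl2 and Fosl1 carried more than 20 kb in DMSO-treated NIH3T3 cells and under 7 kb in either limb genotype, while Fos carried 6200 bp in WT limb and 3950 bp with DMSO.

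H3K27ac covered far more of the Jun, Fosl2 and Fosl1 loci in NIH3T3 fibroblasts than in limb buds, and the Fos locus went the other way. In a whole limb bud, fewer cells with a mark and less of it per cell cannot be told apart. Jun, the JUN protein most active as a transcriptional activator, had 4200 bp of H3K27ac peaks in WT limb, 3800 bp in Shh-/- limb, 34923 bp with DMSO and 21523 bp with purmorphamine. Fosl2, a FOS protein without the strong activation domain of Fos, had 1050, 1300, 23200 and 20350 bp in the same order. Fosl1, its close relative that is itself an AP-1 target, had 6900, 6600, 29050 and 21250 bp. These 3 loci had the most covered bases of the 8 in NIH3T3 cells, and Fosl2 had the fewest in WT limb. As a share of the window, which is longer at Fosl2, Jun had 33.8% and Fosl1 26.8% with DMSO, and Junb with 19.1% was level with Fosl2 at 19%.

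Fos, the prototype of the FOS proteins, had 6200 bp in WT limb, 5700 bp in Shh-/- limb, 3950 bp with DMSO and 5250 bp with purmorphamine. Fosb, the remaining FOS protein, had 6502, 4800, 8902 and 10152 bp. These were the only members of the 8 with more covered length under purmorphamine than under DMSO. Junb, a weaker activator than Jun, had 8700, 8200, 19950 and 16450 bp. Jund, the JUN protein that most cells express without a stimulus, had 10000, 8850, 18200 and 13850 bp. Atf3, a stress-induced repressor, had 1800, 740, 3150 and 2100 bp and was the lowest of the 8 in all but the WT limb list, where Fosl2 was lower.

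DMSO-treated NIH3T3 cells had more H3K27ac than WT limb at 7 of the 8 loci, and over all protein-coding genes with any such peak 84.1% of the windows went the same way. The sum over the loci was 141325 bp with DMSO and 45352 bp in WT limb, a ratio of 3.12, and the ratio of the sums over all protein-coding windows was 2.64. The list with more peaks also had the lower peaks, with a median largest log2 ratio of ChIP to input of 2.70 with DMSO and 3.09 in WT limb. Fosl2 had a ratio of 22.1, and 3.54% of the windows with peaks in both lists had one as high. Jun had a ratio of 8.31 (13.1% of windows as high) and Fosl1 one of 4.21 (28.9%). Junb, Jund, Atf3 and Fosb had ratios of 2.29, 1.82, 1.75 and 1.37, below the median over all windows of 2.54. Fos had a ratio of 0.637, and 94.5% of windows had one as high. The order of the family thus spanned most of the range over all windows, whose middle 95% ran from 0.34 to 30.5, and the count of 7 of 8 was near the background. Fos rose above 1, to 1.10, with 100 kb on either side, and Fosb fell to 0.396 with 20 kb. With 20 kb the ratio was 11.8 at Fosl1, 11.3 at Fosl2 and 4.61 at Jun, so the order of these loci depended on the flank.

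With DMSO the covered length was greater than with purmorphamine at 6 of the 8 loci, against 58.6% of all windows. The ratio of DMSO to purmorphamine was 1.62 at Jun, 1.5 at Atf3, 1.37 at Fosl1, 1.31 at Jund, 1.21 at Junb and 1.14 at Fosl2, with 10.8% of windows as high as Jun. It was 0.877 at Fosb and 0.752 at Fos. All 8 ratios lay within the middle 95% of all windows, 0.426 to 2.85. WT limb had more than Shh-/- limb at 7 of the 8 loci, against 74.3% of all windows, with ratios of 1.05 to 2.43 at those 7 and 0.808 at Fosl2. The ratio of 2.43 at Atf3 rested on 1800 and 740 bp.

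**Figure D2:**
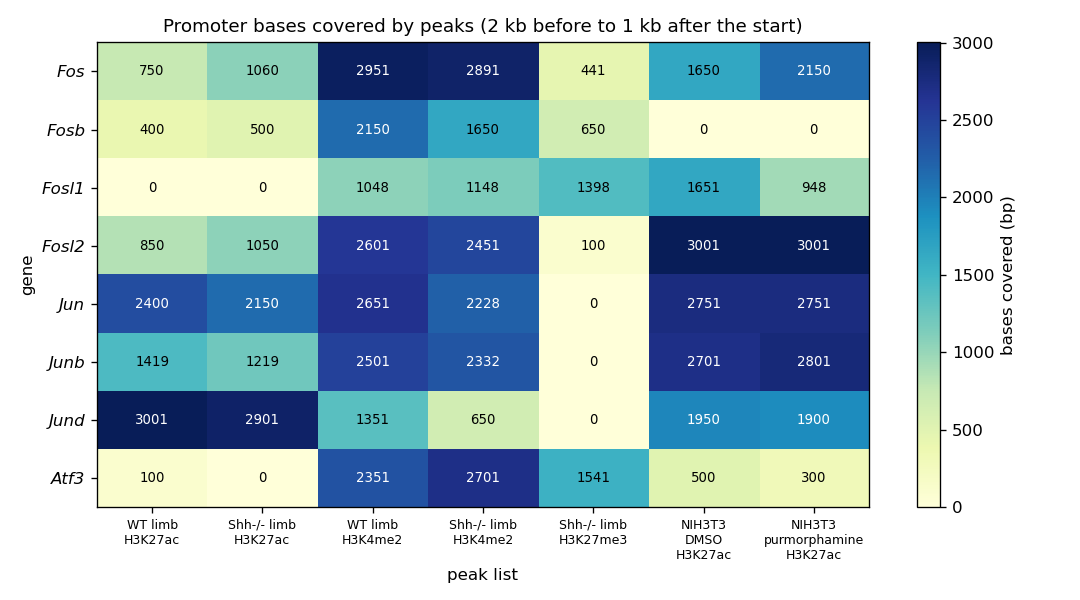
Each cell gives the bases (bp) of the 3001-bp promoter window, from 2 kb before to 1 kb after the start, covered by peaks, for the 8 genes (rows) in 7 lists (columns), with darker cells for more bases and the best-covered start where a gene has several. Fosb has 0 bp of H3K27ac in both NIH3T3 lists, Fosl1 has 0 bp in both limb lists, and H3K27me3 covers Fosl1 and Atf3 by more than 1000 bp.

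Most members carried H3K27ac at the promoter in both cell systems, with Fosl1 and Fosb as exceptions in opposite directions. H3K27ac peaks were found at the promoters of 7 of 8 members in WT limb (43.8% of 21827 protein-coding genes), 6 of 8 in Shh-/- limb (40.9%), 7 of 8 with DMSO (53.0%) and 7 of 8 with purmorphamine (53.1%). H3K4me2 peaks were found at 8 of 8 in WT limb (64.0%) and 8 of 8 in Shh-/- limb (63.5%). H3K27me3 was found at 5 of 8 in Shh-/- limb (13.4%), those of Fos, Fosb, Fosl1, Fosl2 and Atf3, and all 5 also carried H3K4me2 there (11.5% of genes have both). The Fosl2 peak was only 100 bp wide and lay 1452 bp before the start, and within 500 bp of the start H3K27me3 was found at Fosb, Fosl1 and Atf3 only. The Jun, Junb and Jund promoters had no H3K27me3 peak, and the nearest peaks were 276928, 1019 and 43701 bp from their starts. In a whole limb bud, both marks at a promoter in the same cells and each mark in different cells cannot be told apart.

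Jun (chr4:95049034-95052222, minus strand) stands alone in its window, with 0 other protein-coding genes. In NIH3T3 cells with DMSO it had 35 H3K27ac peaks, 33 of them between genes, and in WT limb it had 8. The widest was a single peak of 18000 bp at chr4:95091550-95109549, from -57.3 to -39.3 kb, with a largest log2 ratio of 5.27, and it was the 10th widest of 90989 DMSO peaks. The Jun window ends at chr4:95102222, inside this peak, and the values for its stretch are over the whole peak, so they include bases outside the window. In the same stretch purmorphamine had 8 peaks covering 13050 bp, the best with a log2 ratio of 5.35. WT limb had 4 peaks covering 700 bp there, the best at 3.62, and Shh-/- limb had 2 covering 300 bp, the best at 2.95. No H3K4me2 or H3K27me3 peak lay in it in the limb, so this stretch before Jun was acetylated broadly in the fibroblasts and at a few narrow places in the limb bud.

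On the other side of Jun, DMSO peaks were scattered from 12923 to 51322 bp after the start, with log2 ratios of up to 3.71 and widths of 100 to 2300 bp, and 1 WT limb peak of 100 bp lay among them at 2.52. The best-ranked DMSO peak of the locus without any limb H3K27ac peak was at chr4:95081250-95082599, 29702 bp before the start, with a log2 ratio of 3.94, and purmorphamine covered 500 of its 1350 bp. Of the 35 DMSO peaks, 30 had no WT limb counterpart (beside 81.5% over the list) and 23 had no purmorphamine counterpart (41.1%). Of 22 purmorphamine peaks, 2 had no DMSO counterpart (36.5%).

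The Jun promoter itself was acetylated in every list. Its best-ranked peak, just before the start, had a log2 ratio of 6.34 over 1400 bp in WT limb, where 0.769% of the list ranked as high or higher. In Shh-/- limb the best had 4.71 over 1000 bp (7.48%), with DMSO 5.39 over 3400 bp (0.119%) and with purmorphamine 4.62 over 3350 bp (4.30%). H3K4me2 had 4.05 in WT and 3.60 in Shh-/- limb. A limb peak from -21.2 to -20.7 kb had a log2 ratio of 4.19 in WT and 4.90 in Shh-/- limb, with 2.53 under DMSO and 3.11 under purmorphamine. The promoter ranked near the top of both the WT limb and the DMSO list, so the difference in covered length at Jun lay in the flanks.

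Fosl2 (chr5:32135801-32157842, plus strand) is also the only protein-coding gene of its window. Its promoter peak spanned 7550 bp with DMSO, at chr5:32132350-32139899, with a log2 ratio of 5.51, and only 0.0857% of the DMSO list ranked as high or higher. With purmorphamine it spanned 7450 bp with 5.13 (1.17%). These were the 183rd and 164th widest peaks of their lists. In WT limb the promoter peak was 700 bp wide with 4.49 (11.9%), and in Shh-/- limb it was 1050 bp wide with 4.20 (13.4%). The limb promoter also had H3K4me2 over 2601 bp in WT and 2451 bp in Shh-/-, so it was marked there by a narrower acetylated stretch within a broad H3K4me2 domain.

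Away from its promoter, Fosl2 had almost no limb acetylation. WT limb had 3 peaks in all and Shh-/- limb 2, whereas DMSO had 28, of which 24 were between genes. Of the 28, 27 had no WT limb counterpart, beside 81.5% over the DMSO list. The single WT limb peak of the locus without an NIH3T3 peak was 200 bp wide, 22498 bp after the start, with a log2 ratio of 3.13. The best-ranked DMSO peak without a limb peak, at chr5:32190050-32192199 from 54.2 to 56.4 kb, was 2150 bp wide with 4.74, and purmorphamine had 3.84 over 1400 bp there. Purmorphamine had 1 peak of 2700 bp at chr5:32101550-32104249 (-34.3 to -31.6 kb) with 4.35 and 1 of 900 bp at -35.5 to -34.6 kb with 3.02, and DMSO had none at either place. These were the best-ranked and the third-ranked purmorphamine-only peaks over the 8 loci. DMSO in turn had an 800-bp peak from 41.3 to 42.1 kb with 3.96, the best-ranked DMSO-only peak of the 8 loci, so each of the NIH3T3 lists had distal Fosl2 peaks that the other did not have.

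Fosl1 (chr19:5447547-5455946, plus strand) had the clearest contrast at its promoter. No H3K27ac peak reached it in either limb genotype, where the nearest lay 9403 bp away in WT and 9553 bp in Shh-/- limb. Shh-/- limb instead had an H3K27me3 peak of 1850 bp across the start, at chr19:5447300-5449149, with a log2 ratio of 4.88, and 1.37% of that list ranked as high or higher. H3K4me2 was present over 1048 bp in WT and 1148 bp in Shh-/- limb. H3K27ac covered 1651 bp of the promoter with DMSO and 948 bp with purmorphamine. The peak at the start had a log2 ratio of 4.16 with DMSO and 3.44 with purmorphamine, and a peak that ended before it, at chr19:5443800-5445849 and mostly outside the promoter window, had 4.41 and 2.71. Fosl1 shares its window with 11 other protein-coding genes, and much of the remaining acetylation lay at theirs. The best-ranked DMSO peak without a limb peak, of 2700 bp with 4.31 at chr19:5471200-5473899, lay at the promoter of Efemp2, and 12 of its 25 DMSO peaks were at promoters of other genes. A 300-bp WT-only limb peak lay 13698 bp before the start with 3.63.

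Fos (chr12:85473890-85477273, plus strand), with 0 other protein-coding genes in its window, had most of its acetylation around 3 places in limb and fibroblasts. Still, 8 of its 12 WT limb peaks had no overlapping DMSO peak, beside 61.8% over the WT limb list. At the promoter, where the printed window holds the serum response element, the best-ranked peak had a log2 ratio of 5.55 in WT limb, 4.60 in Shh-/- limb, 3.85 with DMSO and 4.21 with purmorphamine. From -19.8 to -17.2 kb, at chr12:85454100-85456699, WT limb had 1 peak of 2600 bp with 5.95 and Shh-/- limb 2 peaks covering 2300 bp with 6.00. DMSO had 3 narrow peaks covering 950 bp there with 2.83, and purmorphamine 2 covering 900 bp with 3.15. At this element before Fos, 1.78% of the WT limb list and 0.911% of the Shh-/- list ranked as high or higher, compared with 49.6% of the DMSO list and 32.3% of the purmorphamine list.

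After the Fos gene, from 11.1 to 12.2 kb, WT limb had a peak with 4.85, Shh-/- limb one with 5.38, DMSO none and purmorphamine a 400-bp peak with 3.05, the second-ranked purmorphamine-only peak of the 8 loci. Just beyond it, from 12260 to 12909 bp after the start, DMSO had a peak with 3.52, and the peaks that overlapped it had 3.69 with purmorphamine and 4.37 in WT limb. Purmorphamine also had a 500-bp peak with 4.08 from 13210 bp, where DMSO had 2.85 and the overlapping WT limb peaks had 2.91 and 3.49. The limb was thus not higher at every Fos peak. That limb peak of 3.49, 250 bp wide and 13734 bp after the start, was WT-only, and a 150-bp Shh-/- only peak lay 2016 bp before the start with 3.15. The best-ranked WT limb peak without an NIH3T3 peak was 250 bp wide, 20116 bp before the start, with 3.43, and the best-ranked DMSO peak without a limb peak was 250 bp wide, 1266 bp before it, with 2.96. The Fos exons carried an H3K27me3 peak of 1850 bp in Shh-/- limb at chr12:85474450-85476299 with 3.48, which began 560 bp after the start. H3K4me2 spanned the start with 5.34 in WT limb (0.126% of the list ranked as high or higher) and 4.77 in Shh-/- limb. H3K27me3 in WT limb was not analysed here.

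Fosb (chr7:19302696-19310051, minus strand) was opposite to Fosl1 in promoter H3K27ac only, since both promoters carried H3K4me2 and H3K27me3 in Shh-/- limb. H3K27ac covered 400 bp of the Fosb promoter in WT limb with a log2 ratio of 3.50 and 500 bp in Shh-/- limb with 3.21. It covered 0 bp in NIH3T3 cells, where the nearest peak lay 1552 bp from the first start with DMSO and 1502 bp with purmorphamine. Both limb values were modest, with 32.3% and 39.3% of their lists ranked as high or higher. H3K4me2 had 4.96 in WT and 4.29 in Shh-/- limb, and H3K27me3 in Shh-/- limb had 650 bp at the promoter with 2.61 and a peak of 2600 bp in the gene body at chr7:19304150-19306749 with 4.17. The Fosb window holds 7 other protein-coding genes. A 400-bp limb peak 16898 bp before the start had 4.16 in WT and overlapped no NIH3T3 peak, although a 100-bp DMSO peak adjoined it. A 700-bp DMSO peak 32298 bp before the start had 3.98 and no limb H3K27ac, and the best-ranked WT-only limb peak of the 8 loci, 400 bp wide with 3.89, lay 8952 bp downstream of the start.

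Junb (chr8:84974484-84978718, minus strand) was acetylated at its promoter in all 4 lists, with log2 ratios of 4.49 in WT limb, 4.74 in Shh-/- limb, 4.69 with DMSO and 4.47 with purmorphamine. Those values were close to each other, and the promoter bases covered were 1419, 1219, 2701 and 2801. The WT limb peak from -7.23 to -6.33 kb that holds 3 AP-1 sites in the printed window had 4.70 in WT and 3.05 in Shh-/- limb, 4.44 with DMSO and 3.66 with purmorphamine. It was lower in the mutant than in the WT limb and lower with purmorphamine than with DMSO, each from 1 pooled list. All 14 WT limb peaks at Junb had a DMSO counterpart, whereas 61.8% of the whole WT limb list had none. The best-ranked DMSO peak without limb or purmorphamine H3K27ac was 1900 bp wide with 3.66, 9181 bp before Junb. It reached into the promoter window of Hook2 but lay mostly outside it. A 300-bp Shh-/- only peak with 3.27, the best-ranked of the 8 loci, lay 2431 bp before the Junb start. The Junb window holds 9 other protein-coding genes, and its widest H3K27me3 peak, of 3300 bp, lay over Rtbdn.

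Jund (chr8:70698949-70700616, plus strand) was the most fully acetylated promoter in the limb, with a 3800-bp peak and a log2 ratio of 5.36 in WT and a best peak of 5.76 in Shh-/- limb. With DMSO it had 5.18 and with purmorphamine 5.36, with 2.49% and 0.429% of the lists ranked as high or higher. The RefSeq start lies before the GENCODE start used here, and around it the NIH3T3 values were 3.28 and 3.55, from separate peaks. The WT limb value there is the same 5.36, since the 3800-bp peak spans both starts, so these are not values of like stretches. A 1500-bp limb peak from -7.85 to -6.35 kb, at chr8:70691100-70692599, had 4.60 in WT and 5.10 in Shh-/- limb, no peak in either NIH3T3 list and at most 100 bp of H3K4me2. It was the best-ranked WT limb peak without an NIH3T3 peak over the 8 loci. In the other direction the best-ranked DMSO peak without a limb peak was 3150 bp wide with 4.13 in Iqcn, the gene that follows Jund, and a 500-bp DMSO-only peak with 3.44 lay in an Iqcn exon 10300 bp after the Jund start.

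Atf3 (chr1:191170296-191218039, minus strand) has a long and a short form with separate starts. At the start of the short form WT limb had a single 100-bp H3K27ac peak with a log2 ratio of 2.67 and Shh-/- limb none, and DMSO had 500 bp with 2.72 and purmorphamine 300 bp with 2.78, all in the lower ranks of their lists. H3K4me2 at the same start had 4.52 in WT and 5.44 in Shh-/- limb, and only 0.0701% of the Shh-/- list ranked as high or higher. H3K27me3 in Shh-/- limb covered 2800 bp beside it at chr1:191183800-191186599 with 4.74. The start of the long form had a peak in 1 of the 7 lists, 400 bp wide with 3.15 under DMSO. A WT limb peak of 350 bp lay 43785 bp before that start with 2.88. Atf3 thus had H3K4me2 at its short-form start in both limb genotypes and H3K27me3 beside it in the mutant, the only genotype analysed here for that mark, with little H3K27ac there in any list.

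**Figure D3:**
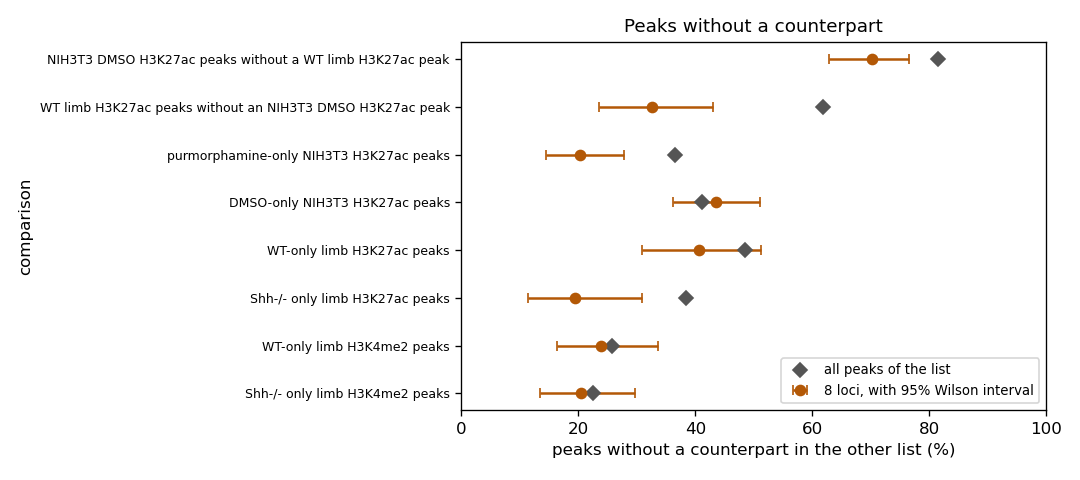
Points show the percentage of peaks at the 8 loci without a counterpart in the other list of the pair, with 95% Wilson intervals (counting error only), and diamonds the same percentage over the whole list. The loci lie below the whole list for WT limb against DMSO (32.6% and 61.8%) and for purmorphamine-only peaks (20.3% and 36.5%), and near it for H3K4me2.

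The share of peaks without a counterpart in the other cell system is given for the 8 loci beside the whole lists as a description, since peaks at 1 locus share their surroundings and are not independent. Of 86 WT limb H3K27ac peaks, 28 had no DMSO counterpart, 32.6% (95% interval 23.6 to 43.0, beside 61.8% over the list). They came from Jund (10 of 15), Fos (8 of 12), Fosb (6 of 17), Atf3 (2 of 6), Jun (1 of 8) and Fosl2 (1 of 3), with 0 of 11 at Fosl1 and 0 of 14 at Junb. Of 168 DMSO peaks, 118 had no WT limb counterpart, 70.2% (62.9 to 76.6, beside 81.5% over the list), with the highest shares at Fosl2 (27 of 28) and Jun (30 of 35) and the lowest at Junb (4 of 15). Because promoter peaks are shared more often than others, the shares were also taken apart. Among distal peaks 25 of 48 WT limb peaks lacked a DMSO counterpart, 52.1% (38.3 to 65.5, beside 79.9% over the list), and among promoter peaks 3 of 38 did, 7.89% (2.72 to 20.8, beside 14.2%). Among distal DMSO peaks 97 of 114 lacked a WT limb counterpart, 85.1% (77.4 to 90.5, beside 91.4% over the list).

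In NIH3T3 cells, 73 of 168 DMSO peaks had no purmorphamine counterpart, 43.5% (36.2 to 51.0, beside 41.1% over the list, and 37.6% without Jun), and 28 of 138 purmorphamine peaks had no DMSO counterpart, 20.3% (14.4 to 27.8, beside 36.5% over the list). Jun supplied 23 of the 73 DMSO-only peaks, Fosl2 15, Jund 14 and Fosl1 10, and Fosl2 supplied 8 of the 28 purmorphamine-only peaks. Among distal peaks the shares were 64 of 114 for DMSO-only, 56.1% (47.0 to 64.9, beside 48.8% over the list), and 24 of 89 for purmorphamine-only, 27% (18.8 to 37.0, beside 43.0%). DMSO-only peaks thus outnumbered purmorphamine-only peaks by 73 to 28 at the loci and by 37405 to 32020 over the lists.

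In the limb, 35 of 86 WT H3K27ac peaks had no Shh-/- counterpart, 40.7% (30.9 to 51.3, beside 48.5% over the list), and 12 of 62 Shh-/- peaks had no WT counterpart, 19.4% (11.4 to 30.9, beside 38.4%). The WT-only peaks were spread over the loci, from 1 of 3 at Fosl2 to 7 of 15 at Jund, and the 3 best-ranked of them, at Fosb, Fosl1 and Fos, were 250 to 400 bp wide. The 3 best-ranked Shh-/- only peaks, at Junb, Fos and Jun, were 150 to 300 bp wide, that at Jun 46452 bp before the start with a log2 ratio of 2.91. For H3K4me2, 22 of 92 WT peaks were WT-only, 23.9% (16.4 to 33.6, beside 25.7% over the list), and 19 of 93 Shh-/- peaks were Shh-/- only, 20.4% (13.5 to 29.7, beside 22.5%).

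**Figure D4:**
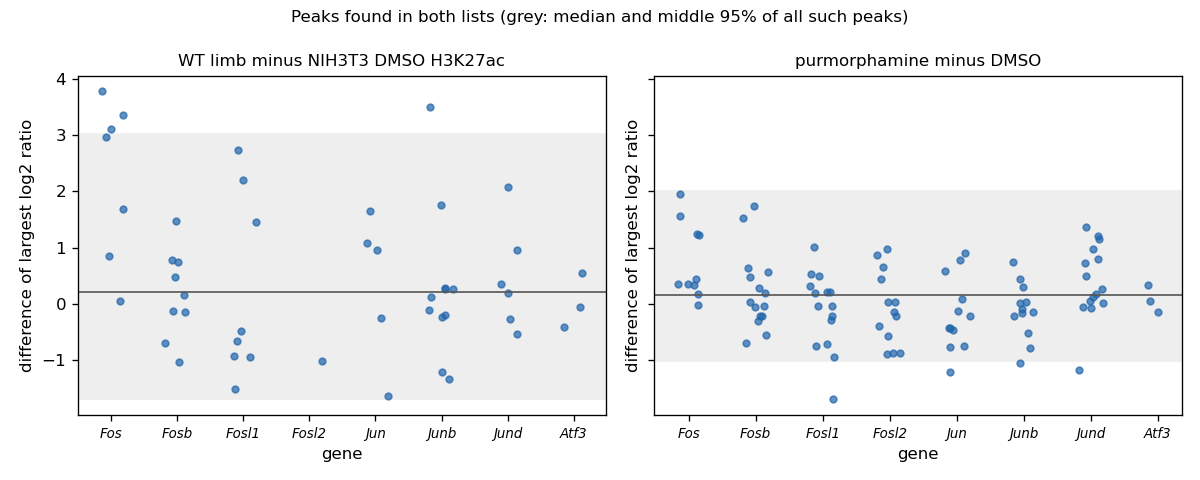
Each point is a pair of overlapping peaks at a locus, placed by the difference of their largest log2 ratios of ChIP to input, WT limb minus DMSO on the left and purmorphamine minus DMSO on the right, with the median (line) and the middle 95% (band) of all such pairs in grey. On the left 3 Fos pairs, which share 1 limb peak, and 1 Junb pair lie above the band, and on the right 4 pairs lie below it and 0 above.

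Where a peak was found in both lists, the heights spread widely within most loci, and Fos had the highest median of limb over DMSO. The largest log2 ratios were made within each condition, so differences are read against the median over all shared pairs. Of WT limb minus DMSO, the 50 pairs at the loci had a median of 0.22, and all 16848 pairs had 0.22 with a middle 95% of -1.69 to 3.03. Fos had a median of 2.96 over 7 pairs, from 0.06 to 3.78, and 3 of them were above the middle 95%. Those 3 were separate DMSO peaks, with 2.83, 2.59 and 2.16, set against the 1 WT limb peak of 5.95 before Fos, and the 7 pairs held only 4 limb peaks. Jun had 0.95 over 5 pairs, from -1.64 to 1.66, Jund 0.27 over 6, Fosb 0.15 over 9, Junb 0.13 over 11 with 1 at 3.51, Atf3 -0.05 over 3, Fosl1 -0.58 over 8 with 1 at 2.73, and Fosl2 -1.02 in its single pair. At Fos 6 of the 7 pairs lay above the median of all pairs.

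Of purmorphamine minus DMSO, the 95 pairs at the loci had a median of 0.04, from -1.70 to 1.95, against 0.15 over all 53584 pairs, and 43 of the 95 were above that median. Fos had the highest median, 0.40 over 10 pairs, and Jun the lowest, -0.31 over 12. The 10 Fos pairs held only 7 different purmorphamine levels, since several DMSO peaks were set against the same purmorphamine promoter peak of 4.21. The 12 Jun pairs held 11. Pairs that share a peak are not independent. Jund had 0.26, Atf3 0.05, Fosb 0.03, Fosl1 -0.04, Junb -0.12 and Fosl2 -0.15. The 4 pairs below the middle 95% were 1 each at Fosl1, Jun, Junb and Jund. Of Shh-/- minus WT limb, the 51 H3K27ac pairs had a median of -0.17 (-0.14 over all pairs) and the 70 H3K4me2 pairs one of 0.04 (0.11 over all pairs), so the levels at the loci sat at those of the whole lists.

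Motifs were counted in the 300-bp windows around the highest point of each peak and in the RefSeq promoters, 250 bases before to 50 after the start, on both strands. The motifs were the AP-1 site TGANTCA, the cAMP response element TGACGTCA, the serum response element and the Jun promoter site TGACATCA, none of which contains another. This AP-1 pattern is a loose one that accepts any middle base, and matches with different middle bases were not counted apart. Of the 8 members, 7 had an entry among the 27025 promoters. The AP-1 site was in 0 of the 7 and in 7.93% of all promoters. The exact cAMP response element TGACGTCA was in 0 of 7 and 1.88%. Variants of it were not searched, so the near match TGACGTAG in the printed Fos promoter window was not counted. The serum response element was in 0 of 7 and 1.57%, since that of Fos lies further from the start than this window reaches. TGACATCA was in 1 of 7, Jun, at positions -45 to -38, and in 3.76% of all promoters.

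In the peaks, the AP-1 site was in 24 of 168 DMSO windows at the loci, 14.3% (9.79 to 20.4), beside 9.41% of the whole list, and in 20 of 138 purmorphamine windows, 14.5% (9.58 to 21.3), beside 9.48%. In WT limb it was in 6 of 86, 6.98% (3.24 to 14.4), beside 7.65%, and in Shh-/- limb in 4 of 62, 6.45% (2.54 to 15.4), beside 7.62%. The DMSO windows with the site came from Fosl2 (9 of 28), Fosb, Fosl1, Jun and Jund (3 each), Atf3 (2 of 7) and Junb (1 of 15), with 0 of 12 at Fos. Among DMSO peaks without a WT limb counterpart 20 of 118 had it, 16.9% (11.2 to 24.7), beside 10.4% of all such peaks, and among those with one 4 of 50, 8.00% (3.15 to 18.8), beside 5.14%. Base composition also differed, with 51.5% G and C in the DMSO windows at the loci and 48.1% over the list, and its part in these shares was not tested. The share at Fosl2, 32.1% (17.9 to 50.7), was the only one of the 8 loci whose interval lay above the share of the whole list, and it was singled out after the values were seen. The exact cAMP response element was in 0 windows at the loci in all 4 H3K27ac lists. Over the whole lists it was in 0.338% of windows in WT limb and 0.339% in Shh-/- limb. It was in 0.24% with DMSO and 0.239% with purmorphamine, so 0 at the loci is near the background.

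The other genes of the pathway showed how the members sit among their partners, regulators and targets. Over all protein-coding genes 43.8% had promoter H3K27ac in WT limb and 53.0% with DMSO, and the counts below are to be read beside these shares. Of 12 dimer partners, 7 had it in WT limb and 8 with DMSO, near those shares. Jdp2, a repressor that pairs with JUN, had 0 bp in WT limb, 2500 bp with DMSO and 2619 bp with purmorphamine, and the small MAF protein Mafk had 0, 2536 and 2836 bp. Maf had 0, 450 and 0 bp, whereas Batf3, with 150, 0 and 0 bp, was covered in WT limb and not with DMSO. The kinases and factors upstream of AP-1, among them Mapk8, Srf, Elk1 and Creb1, had promoter H3K27ac at 13 of 14 in each of the 4 H3K27ac lists, with Mapk10, the neuronal JUN kinase, the exception in all 4. Over all protein-coding genes, 12.2% had promoter H3K27ac with DMSO and not in WT limb, and 3.05% the reverse.

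Of 12 other immediate-early genes, 10 had promoter H3K27ac in WT limb (43.8% of all genes) and 12 with DMSO (53.0%). Egr3 and Ier3 were covered in NIH3T3 cells only, with 2301 and 1585 bp under DMSO, and Egr3 had H3K27me3 over 3001 bp in Shh-/- limb. Of 14 genes known as AP-1 targets, 2 had promoter H3K27ac in WT limb (43.8% of all genes), 1 in Shh-/- limb (40.9%), 11 with DMSO (53.0%) and 10 with purmorphamine (53.1%). The 9 with DMSO and not in WT limb were Mmp9, Timp1, Plaur, Plau, Cd44, Il6, Ccl2, Hmox1 and Hbegf, genes of proteolysis, inflammation, adhesion, haem breakdown and growth factor signalling, with 1295 to 2851 bp covered. Ccl2, a chemokine gene, had 2701 bp with DMSO and 0 bp with purmorphamine, and Mmp9, a gelatinase gene, had 2050 and 600 bp. Promoters with a DMSO peak and no purmorphamine peak were 1.39% of all genes, and those with the reverse 1.49%. The limb bud and fibroblast markers moved with the same comparison, 6 of 6 and 4 of 6 of them being covered in one cell system only, so the target list cannot be told apart from cell identity here.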

How the data were processed

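The data were 7 deposited peak lists, 1 for each condition of 2 replicates, with groups taken from the sample labels. The submitters' processing notes name Bowtie2 2.2.5 without its settings. The authors called peaks with CisGenome 2.1.0 against input on both replicates together. For each peak the authors deposited a false discovery rate (a q-value), a score that orders the list, the highest log2 of ChIP over input, and −log10 of the smallest Poisson p-value. Scores were at least 3.00 and deposited −log10 values at least 5.00 in every list, while the highest deposited q-value ran from 0.000805 to 0.255, so the lists were not limited by 1 common false discovery rate. The study's methods state only a minimum number of reads per sample and the lists hold no read counts, so no precision from depth could be given.

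Only the 19 autosomes, X and Y entered. Genes and starts came from GENCODE vM21 on mm10, and 1 bp in common with any peak of the second list made a peak shared. Promoter sequences came from RefSeq (GRCm38.p6) and motifs were matched exactly on both strands. Overlaps were checked on simulated peaks and against bedtools 2.31.1. Scripts ran in Python 3.11.15 with pandas 2.3.3, numpy 2.4.6 and scipy 1.17.1. No comparison had replicate lists, so none was tested, and shares carry 95% Wilson intervals. The members, gene lists and markers were chosen with earlier results of these data known. The named peaks were those at a member's promoter, per locus the best-ranked DMSO peak without limb H3K27ac and the best-ranked WT limb peak without an NIH3T3 peak, and over all loci the 3 best-ranked peaks found in 1 list of a pair only. The elements described beyond these, the printed windows and the Jun promoter site were chosen after the values were seen. The alternatives were other flanks, overlap rules, list sizes, promoter widths and units, merged peaks and leaving out each locus in turn. Some genes of the lists are not reported here one by one.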

Additional observations from a re-analysis of the deposited data

How the results depend on the processing

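No paired analysis was possible because each list pools both replicates of a condition. Of 177 alternative values of the summaries, 155 stayed within the counting interval or within 1.5 times the value given above and 22 moved further. Brackets, where given, hold the share over all features under the same setting. For DMSO peaks without a WT limb counterpart the share was 83.3% with an overlap of at least 50% (88.9% over the list), 78.3% in base pairs (83.0%), 56.0% with lists of equal size (70.6%) and 51.7% with peaks within 1 kb merged (70.4%). For WT limb peaks without a DMSO counterpart it was 17.5% with merged peaks (56.3%). Purmorphamine-only peaks were 10.1% where peaks within 500 bp were treated as shared, here called the gap setting, (24.5%) and 12.5% in the better-ranked 50% (26.8%). DMSO-only peaks were 51.2% with an overlap of at least 50% (51.2%), 28.0% with the gap setting (26.9%), 32.6% in the better-ranked 50% (30.4%), 33.7% in base pairs (34.0%) and 25.0% merged (29.0%). WT-only H3K27ac peaks were 22.1% with the gap setting (30.5%), 28.1% in base pairs (40.3%) and 25.0% merged (39.4%), and Shh-/- only peaks were 33.9% with an overlap of at least 50% (46.8%) and 6.45% with the gap setting (20.9%). For H3K4me2, WT-only peaks were 6.52% with the gap setting (12.2%) and 15.2% merged (18.5%). Shh-/- only H3K4me2 peaks were 4.30% with the gap setting, below the share over the list under the same setting. H3K27me3 was at 3 of 8 promoters within 500 bp of the start (10.7%), and 29.3% of the H3K4me2 pairs lay above the median of all pairs with 20 kb on either side. The share of DMSO-only peaks, 43.5% beside 41.1% of the list, lay below that of the list with 20 kb (39.8%) or 100 kb (39.3%) on either side, without Jun (37.6%), in base pairs and merged, so its side of the background is not settled. WT-only H3K4me2 peaks, below the list at 23.9%, lay above it in the better-ranked 50% (25.0% beside 21.0%) and without Fosl1 (27.6%), and Shh-/- only ones did in the better-ranked 50% (21.6% beside 20.8%). The cause of these moves was not tested. Leaving out 1 locus at a time gave 65.0 to 74.5% for DMSO without limb, 25.4 to 38.9% for WT limb without DMSO, 17.5 to 23.3% for purmorphamine-only, 37.6 to 47.0% for DMSO-only, 38.8 to 43.1% for WT-only and 18.0 to 22.4% for Shh-/- only H3K27ac peaks. Of 96 alternative ratios at single loci, 84 stayed within 1.5 times the value given above, 8 moved further and 4 passed 1. The ratio of DMSO to WT limb passed 1 for Fosb with 20 kb on either side (0.396) and for Fos with 100 kb (1.10), and that of WT to Shh-/- limb for Jund with 20 kb (0.971) and Junb in the better-ranked 50% (0.962). Among those that moved further were the ratios of DMSO to WT limb with 20 kb at Fosl1 (11.8), Fosl2 (11.3) and Jun (4.61).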

Other observations

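Most of the 33 other protein-coding genes within the windows of the members had the same promoter H3K27ac call in both cell systems. H3K27ac was found at the promoters of 20 of them in WT limb (43.8% of all protein-coding genes), 20 in Shh-/- limb (40.9%), 22 with DMSO (53.0%) and 23 with purmorphamine (53.1%), and H3K27me3 at 6 in Shh-/- limb (13.4%). Promoters with H3K27ac under DMSO and not in WT limb were 2, those of Iqcn and Snx32, and 0 had the reverse, beside 12.2% and 3.05% of all genes. Iqcn, which follows Jund, had 0 bp in both limb lists, 2643 bp with DMSO and 1943 bp with purmorphamine. Rtbdn and Mast1 near Junb, Ppm1n near Fosb and Pde4c near Jund had 0 bp of H3K27ac in all 4 lists and 2159, 1247, 1486 and 583 bp of H3K27me3 in Shh-/- limb. Cfl1, the cofilin gene near Fosl1, had 3001 bp in WT and Shh-/- limb, 2801 bp with DMSO and 2851 bp with purmorphamine. At loci with many neighbours (Fosb, Fosl1, Junb and Jund) the covered length therefore holds their promoters too, whereas Fos, Fosl2 and Jun have none in their windows.

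Peaks at the 8 loci were also counted in the best-ranked 10% of each list. By construction 10% of each whole list is in this part. For H3K27ac they were 26 of 168 with DMSO (15.5%), 25 of 138 with purmorphamine (18.1%), 12 of 86 in WT limb (14%) and 15 of 62 in Shh-/- limb (24.2%). They were 10 of 92 (10.9%) in WT and 11 of 93 (11.8%) in Shh-/- limb for H3K4me2, and 7 of 31 (22.6%) for H3K27me3. Loci with many neighbours supplied many of them. Fosl1 had 8 and Junb 6 of the 26 with DMSO, and Jund had 5 and Junb 4 of the 15 in Shh-/- limb.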
